A study of Mus musculus with 4 samples.

Results

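Cytochrome P450 genes were followed in RNA sequencing of mouse colonic mucosa with and without Itch, the gene of a HECT-type E3 ubiquitin ligase. The members are the genes whose symbol has the form Cyp, family number, subfamily letter and gene number, as listed in the count file of WT replicate 1. This gave 61 genes of 19308. By family number, 50 belong to families 1 to 4 (2, 31, 5 and 12 genes), 10 to steroid and retinoid families, and 1, Cyp20a1, to neither. The rule leaves out P450 genes with other symbols, such as Cyp51. The 2 wild-type (WT) libraries came from colonic mucosa labelled C57BL/6. The 2 knockout libraries came from Itch-/- mice (labelled Itch KO, with no strain named), whose mucosa the extraction text calls inflamed, while the sample labels give all 4 libraries the state inflammation. Age is not given in the sources used here, and no label ties a library to an animal or says that it came from a separate one, so a p-value here reflects the spread of these 4 libraries alone, which may be technical. Genotype and inflammation cannot be told apart in this design.

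P450 enzymes are heme proteins that insert an oxygen atom into small lipophilic molecules, and most of the microsomal ones take their electrons from the reductase Por. Families 1 to 3 oxidise drugs, plant compounds and other foreign chemicals as well as fatty acids, and family 4 mainly hydroxylates the end of fatty acid and leukotriene chains. The steroid and retinoid families handle cholesterol, bile acids, steroid hormones, vitamin D and retinoic acid. In the intestine the first group sits mostly in the absorptive epithelium, where the receptors Ahr and Nr1i2 regulate several of its genes.

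Counts over the 19308 shared genes ran from 8181193 to 12199709 per library. Levels are in CPM, which are counts scaled to the library size with TMM factors. Itch transcripts measured 203 and 183 CPM with WT labels and 11.9 and 13.4 CPM with Itch KO labels, so the gene matched the labels. Markers of simple epithelium summed to 1742 and 1544 CPM in WT and 2006 and 1550 CPM in KO, so simple epithelium was present in every library. Of these markers only Cdx2 was lowest in WT replicate 1, at 24.3 CPM there against 139.4 CPM in WT replicate 2 and 129.4 and 115.0 CPM in KO. Leukocyte markers summed to 405 and 316 CPM in WT and 1017 and 1308 CPM in KO, and for 11 of 12 markers the lower knockout library was above the higher WT library, as for 30.0% of all tested genes. Markers of absorptive colonocytes summed to 1511 and 1388 CPM in WT and 1313 and 906 CPM in KO, and 2 of these 10 markers had both knockout libraries below both WT libraries, against 26% of all tested genes. The part of either marker list in the P450 differences was not tested. In whole mucosa, fewer cells of a type and less RNA per cell cannot be told apart. The upper end of the counts was flat in all libraries, where the largest count of any gene was 9389 and the top 10 genes took 0.453% to 0.633% of the total. Its effect on fold changes of abundant genes was not tested.

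Summed P450 transcripts were lower in the knockout mucosa in families 2 and 3. The sums of families 1 and 4 and of the steroid and retinoid class overlapped between groups. Families 1 to 4 together summed to 1369 and 1900 CPM in the WT libraries (mean 1634 ± 375, SD, n = 2) and to 939 and 765 CPM in the knockout libraries (852 ± 123, SD, n = 2). The steroid and retinoid families summed to 162 and 156 CPM in WT and to 140.2 and 170.1 CPM in KO, so their groups overlapped. Within families 1 to 4, family 2 summed to 938 and 1089 CPM in WT and to 492 and 338 CPM in KO, and family 3 to 129 and 194 CPM against 83.0 and 44.3 CPM. Both knockout libraries lay below both WT libraries in these 2 families. Family 4 summed to 298 and 612 CPM in WT and to 362 and 365 CPM in KO, where the groups overlapped. Family 1 summed to 3.83 and 5.12 CPM in WT and to 1.84 and 18.1 CPM in KO, also with overlap and with the higher mean in KO.

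**Figure D1:**
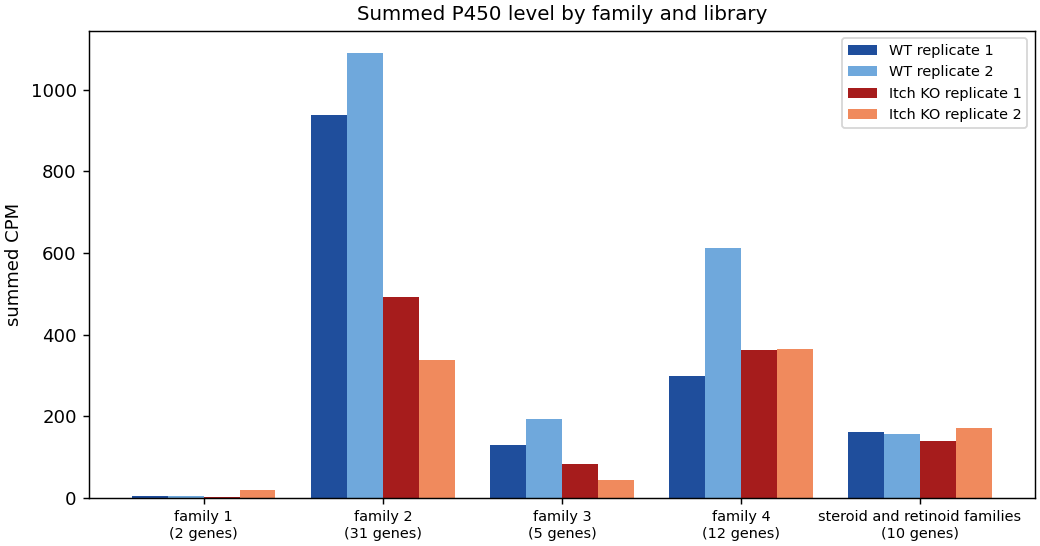
Summed CPM of the P450 genes of families 1, 2, 3 and 4 and of the pooled steroid and retinoid families, with 4 bars, 1 per library, and the number of genes under each name. Families 2 and 3 have both knockout bars below both WT bars, while family 1, family 4 and the pooled steroid and retinoid sum overlap.

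Gene by gene, the mean of the knockout libraries was below that of the WT libraries in 45 of the 48 members of families 1 to 4 with a count. In the steroid and retinoid families it was below in 3 of 10 and above in 7. Over all genes with a count it was below in 9799 of 19151. The 3 exceptions in families 1 to 4 were Cyp1b1, Cyp4f18 and Cyp4f40. The counts describe these libraries, and 12 of the 45 members stood at least 8-fold apart between the WT libraries themselves, as set out further on.

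With edgeR's quasi-likelihood test and Benjamini-Hochberg adjustment over the 16956 genes tested, no P450 gene passed an adjusted p of 0.05, and neither did any gene (0%). Itch itself missed it, with a log2 fold change of -3.93 and an edgeR adjusted p of 0.092, while its DESeq2 adjusted p was 4.0e-56. At an unadjusted p under 0.05, 12 of the 44 members tested were lower, against 9.52% of all tested genes, and 2 were higher, against 10.2%. DESeq2 called 9 members lower, against 4.76% of all tested genes, and 2 higher, against 5.24%. All 9 lower calls were in families 1 to 4: Cyp2c55, Cyp2c65, Cyp2c69, Cyp2d22, Cyp2d26, Cyp2s1, Cyp2w1, Cyp3a13 and Cyp4b1. The higher calls were Cyp4f18 and Cyp11a1. In 22 members tested both knockout libraries were below both WT libraries (26% of all tested genes), and in 4 both were above (30.0%). Limma voom also called 0 members and 0 of all genes. The median log2 fold change was -1.25 over the 35 tested members of families 1 to 4 and 0.15 over the 8 tested members of the steroid and retinoid families, against 0.01 over all genes tested. Genes had to reach a minimum count to be tested, so these medians leave out the sparser members of both classes. The median of the steroid and retinoid families was -0.45 when genes with a mean under 5 CPM were left out and -0.38 without Itch KO replicate 2.

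**Figure D2:**
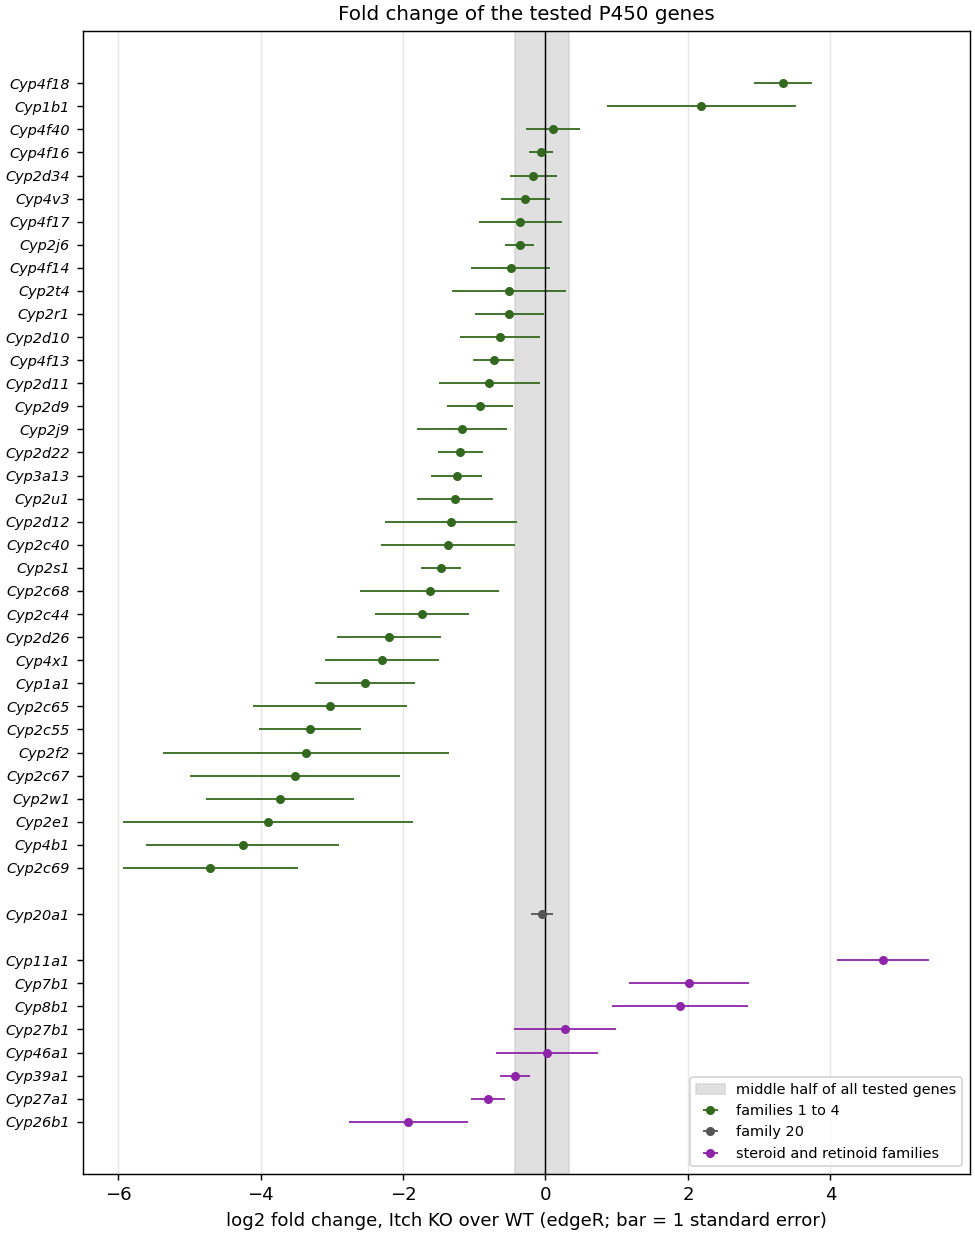
Log2 fold change of Itch KO over WT by edgeR for the 44 tested P450 genes, with a bar of 1 standard error, and in grey the middle part of all tested genes from the lower to the upper quartile. Most members of families 1 to 4 sit left of 0, Cyp4f18 and Cyp11a1 sit far right, and no member passed edgeR's adjusted test.

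The Cyp2c genes, epoxygenases and hydroxylases of arachidonic acid and drugs, were the subfamily with the largest relative difference in summed level among those with 3 or more members tested. Its 8 members summed to 186 and 327 CPM in WT and to 42.9 and 37.4 CPM in KO. All 8 members had a lower mean in KO, and 6 had no overlap between groups, where 26% of all tested genes were lower without overlap. The genes of the cluster lie on GRCm38 chromosome 19 between Cyp2c55 (39007019 to 39042693, plus strand) and Cyp2c69 (39842814 to 39886799, minus strand). Cyp2c44 lies apart on the same chromosome at 44005022 to 44029208.

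Cyp2c promoters are shown because these genes were lower together, with Cyp8b1 as a gene of another family that holds CAAAGTCCA, Cyp1a1 as an Ahr target that holds GCGTG, and Cyp4f18 as the member with a higher DESeq2 call. Each sequence runs 5' to 3' along the gene's strand from 250 bases before the RefSeq start to 50 bases from it, 300 in all, on GRCm38.p6. Capitals mark the matches to TATAAA (the letters of a TATA box), GCGTG (the core of the Ahr response element), AGGTCA (a single nuclear receptor binding repeat) and CAAAGTCCA (an element bound by HNF4 receptors), searched on both strands. Counted from the start, TATAAA lies at -29 in Cyp2c55, -30 in Cyp1a1 and -31 in Cyp8b1. It lies at -162 in Cyp2c65, -150 in Cyp2c66 and +10 in Cyp2c69, so not every marked stretch is a TATA box of its gene. GCGTG lies at -54 in Cyp1a1, and whether Ahr binds it there was not tested. The windows are chr19:39006769-39007068 for Cyp2c55, chr19:39060756-39061055 for Cyp2c65, chr19:39113648-39113947 for Cyp2c66, chr19:39886720-39887019 (minus strand) for Cyp2c69, chr9:121916256-121916555 (minus strand) for Cyp8b1, chr9:57697363-57697662 for Cyp1a1 and chr8:72009577-72009876 (minus strand) for Cyp4f18.
Cyp2c55: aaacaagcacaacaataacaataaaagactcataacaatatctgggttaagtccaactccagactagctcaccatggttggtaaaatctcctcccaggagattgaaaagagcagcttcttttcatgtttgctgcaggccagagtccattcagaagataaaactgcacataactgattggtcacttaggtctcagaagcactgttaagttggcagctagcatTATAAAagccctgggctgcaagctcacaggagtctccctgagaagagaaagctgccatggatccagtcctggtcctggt
Cyp2c65: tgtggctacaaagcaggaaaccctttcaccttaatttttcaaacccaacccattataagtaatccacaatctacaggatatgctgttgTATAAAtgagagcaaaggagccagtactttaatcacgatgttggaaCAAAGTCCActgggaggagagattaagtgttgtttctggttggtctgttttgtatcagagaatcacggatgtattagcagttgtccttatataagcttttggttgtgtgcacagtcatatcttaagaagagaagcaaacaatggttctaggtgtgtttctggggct
Cyp2c66: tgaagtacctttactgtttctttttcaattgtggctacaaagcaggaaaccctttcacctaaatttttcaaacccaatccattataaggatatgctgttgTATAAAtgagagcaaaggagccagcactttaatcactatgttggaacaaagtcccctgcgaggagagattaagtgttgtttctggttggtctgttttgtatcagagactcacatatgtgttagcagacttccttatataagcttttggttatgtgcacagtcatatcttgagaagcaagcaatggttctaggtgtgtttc
Cyp2c69: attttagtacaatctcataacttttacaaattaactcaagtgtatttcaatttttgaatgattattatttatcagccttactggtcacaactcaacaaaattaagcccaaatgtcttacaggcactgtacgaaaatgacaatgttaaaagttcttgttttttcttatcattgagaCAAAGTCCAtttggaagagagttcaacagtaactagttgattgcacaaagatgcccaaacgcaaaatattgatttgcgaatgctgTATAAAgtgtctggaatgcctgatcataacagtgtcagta
Cyp8b1: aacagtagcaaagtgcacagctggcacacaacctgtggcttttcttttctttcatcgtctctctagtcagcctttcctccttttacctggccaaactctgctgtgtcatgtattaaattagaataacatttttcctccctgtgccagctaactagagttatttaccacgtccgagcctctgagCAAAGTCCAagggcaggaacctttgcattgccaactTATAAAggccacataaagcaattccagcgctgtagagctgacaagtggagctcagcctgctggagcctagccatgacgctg
Cyp1a1: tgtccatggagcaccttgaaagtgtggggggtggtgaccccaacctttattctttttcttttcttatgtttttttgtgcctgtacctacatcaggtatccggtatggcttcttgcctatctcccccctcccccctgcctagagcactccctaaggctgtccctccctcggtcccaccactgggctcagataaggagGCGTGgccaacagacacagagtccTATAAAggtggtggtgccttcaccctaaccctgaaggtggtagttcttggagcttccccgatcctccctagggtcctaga
Cyp4f18: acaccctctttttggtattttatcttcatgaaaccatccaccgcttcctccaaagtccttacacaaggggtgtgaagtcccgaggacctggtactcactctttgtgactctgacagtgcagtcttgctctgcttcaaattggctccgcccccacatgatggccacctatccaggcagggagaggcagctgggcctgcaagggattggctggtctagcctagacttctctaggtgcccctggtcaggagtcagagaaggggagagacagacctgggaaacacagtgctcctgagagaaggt

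RefSeq windows existed for 50 of the 61 members, 56 windows in all because some genes have more than 1 start. CAAAGTCCA was in 7 of these 56 windows (12.5%) and in 0.475% of the 32851 promoter windows of the same length. Of the 7 Cyp2c members with a window, 5 held it: Cyp2c40, Cyp2c65, Cyp2c67, Cyp2c68 and Cyp2c69. The other members that held it were Cyp3a11 and Cyp8b1. Cyp2c40, Cyp2c67, Cyp2c68 and Cyp2c69 are close copies by their exons, as set out below, so their matches may not be separate. The shares of 12.5% and 0.475% therefore do not measure an enrichment among P450 genes. Of the members that held it, the Cyp2c genes and Cyp3a11 had a lower mean in KO, and DESeq2 called Cyp2c65 and Cyp2c69 lower. Cyp2c40 and Cyp2c68 overlapped between groups. Cyp3a11 had 26 counts in WT replicate 2 and none elsewhere, and was too sparse for the test. A lower mean was found in 45 of the 48 members of families 1 to 4 with a count, so it does not set these genes apart. Cyp8b1 had a higher mean in KO, which rested on Itch KO replicate 2 and was not called. TATAAA was in 33.9% of member windows and 13.6% of all, GCGTG in 25% and 32.4%, and AGGTCA in 19.6% and 16.3%. A match describes the letters of a window and is neither a site in use nor a cause. Cyp2c65 and Cyp2c66 windows were 94.5% identical over 271 aligned bases, while Cyp2c55 shared 71.2% and 72% with them. Hnf4a, whose product binds this element, had 357 and 304 CPM in WT and 350.1 and 246 CPM in KO, with overlapping groups.

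Cyp2c55, an arachidonic acid hydroxylase of the colon, measured 65.7 and 153 CPM in WT against 5.52 and 16.4 CPM in KO. Both knockout libraries were below both WT libraries. Its log2 fold change was -3.31 (SE 0.72), with an edgeR adjusted p of 0.14 and a DESeq2 adjusted p of 4.2e-06, and DESeq2 called it in all 4 fits that left out a library, over which the edgeR log2 fold change ran from -4.29 to -2.58. Cyp2c65 had 22.0 and 115 CPM in WT against 3.43 and 13.2 CPM in KO, again without overlap. Its log2 fold change was -3.03 (SE 1.08), and DESeq2 (adjusted p 0.0070) called it in 2 of 4 such fits, those without WT replicate 1 and without Itch KO replicate 2. Without WT replicate 2 the log2 fold change was -1.40, and over the 4 fits it reached -4.30. Cyp2c66 next to it measured 0.745 and 20.98 CPM in WT against 0 and 0.722 CPM in KO. It was too sparse for the test, and nearly all its counts came from WT replicate 2.

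Cyp2c69 had 3.41 and 6.26 CPM in WT against 0.368 and 0 CPM in KO, from 32, 77, 3 and 0 counts. DESeq2 called it lower (adjusted p 0.038) with all libraries and in 1 of 4 fits without a library, that without Itch KO replicate 1. The log2 fold change was -4.71 (SE 1.23) and ran from -8.67 to -3.66 without Itch KO replicate 1 and 2 respectively. Cyp2c67 measured 4.58 and 1.06 CPM in WT against 0.491 and 0 CPM in KO, without overlap, and was not called. Cyp2c68 had 72.7 and 24.5 CPM in WT against 26.6 and 4.95 CPM in KO, and Cyp2c40 at 13.1 and 3.90 CPM against 5.03 and 1.55 CPM. In both the groups overlapped, since WT replicate 2 was below Itch KO replicate 1. Cyp2c40, Cyp2c67, Cyp2c68 and Cyp2c69 are close copies: 60.3%, 52.8%, 43.3% and 54.3% of their 50-base stretches of exon also occur in another gene, and for Cyp2c65 and Cyp2c66 it was 20.6% and 19.5%. How the counting treated such reads is not known beyond the tool named, so values of these copies may be split or lost. Cyp2c55 shares 0.514%. Cyp2c44, outside the cluster, measured 4.05 and 2.93 CPM in WT against 1.47 and 0.618 CPM in KO, without overlap and without a call.

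Cyp2s1 and Cyp2w1 were also called lower by DESeq2. Cyp2s1, a P450 of epithelia outside the liver that Ahr ligands induce, had 191 and 139.6 CPM in WT against 72.2 and 47.3 CPM in KO. Its log2 fold change was -1.47 (SE 0.28), the edgeR adjusted p was 0.13, and DESeq2 (adjusted p 0.00013) called it in all 4 fits without a library. It is a gene of chromosome 7, 25802475 to 25816913, minus strand, and shares no 50-base stretch with another gene. Cyp2w1, known from fetal gut and colorectal tumours, measured 16.5 and 19.9 CPM in WT against 2.45 and 0.309 CPM in KO. Its groups did not overlap, the log2 fold change was -3.73 (SE 1.04), and DESeq2 (adjusted p 0.0027) called it in 2 of 4 fits, those without WT replicate 1 and without Itch KO replicate 1. The log2 fold change was -5.83 without Itch KO replicate 1 and -2.88 without Itch KO replicate 2. Cyp2j6, an epoxygenase of the intestine, had 84.5 and 114 CPM in WT against 84.9 and 69.5 CPM in KO, where the groups overlapped. Cyp2j9 measured 13.8 and 19.8 CPM in WT against 4.05 and 10.8 CPM in KO, without overlap and without a call.

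**Figure D3:**
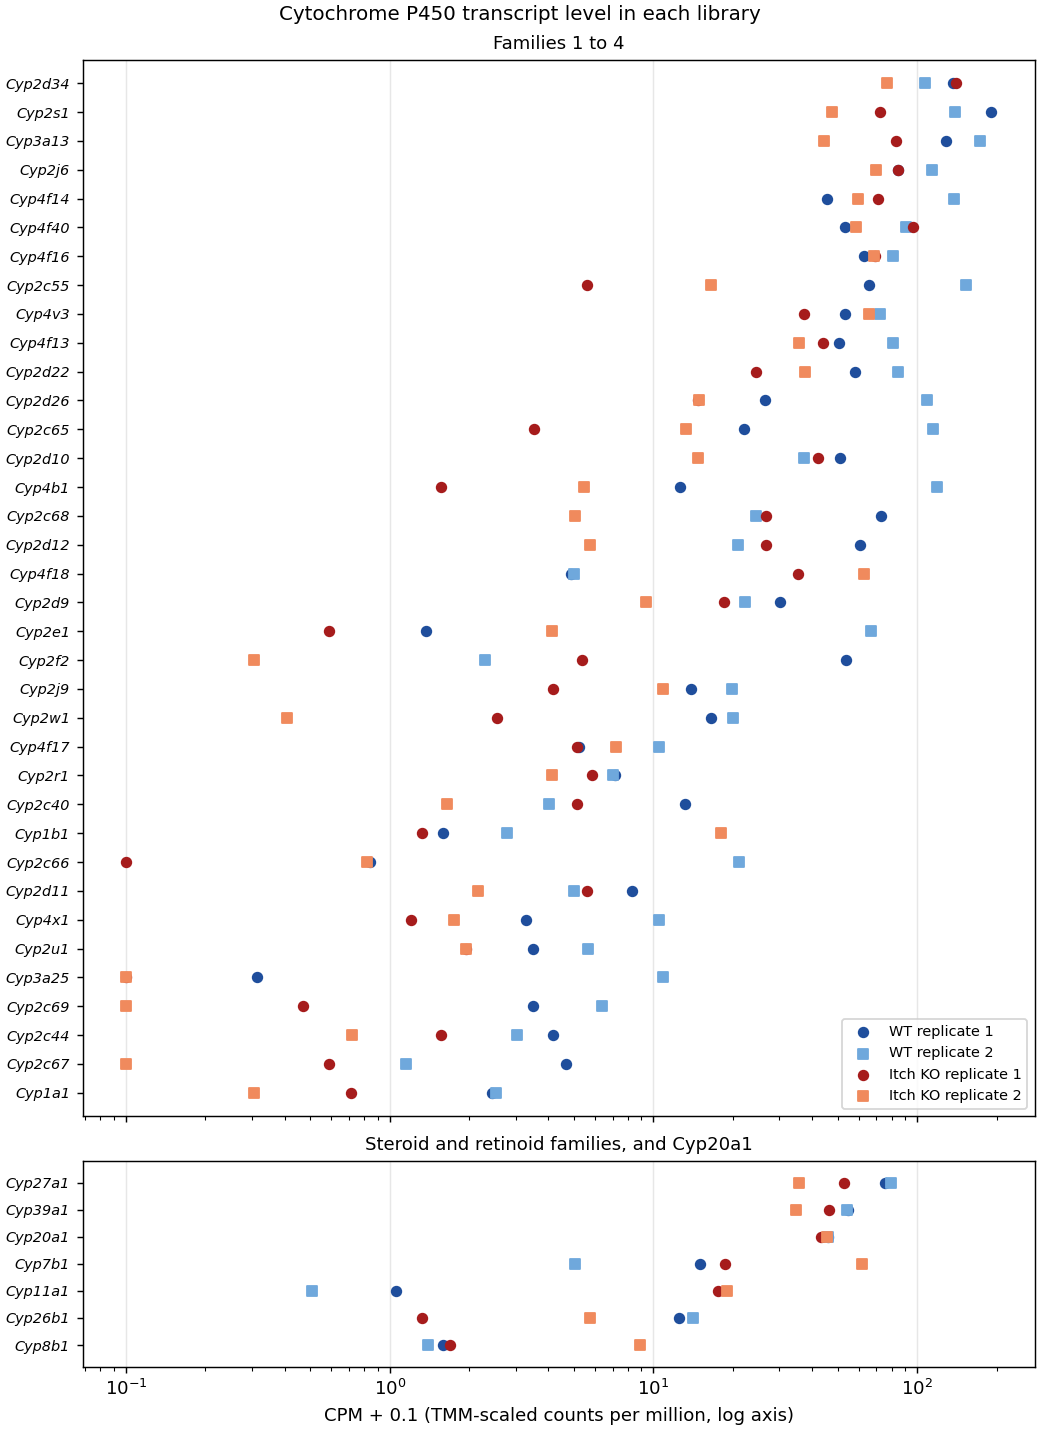
CPM plus an offset of 0.1 on a log axis for the 43 P450 genes that met the rule for per-library values, each point 1 library, with families 1 to 4 above and the other families below. Cyp2c55, Cyp2s1, Cyp2w1 and Cyp4b1 have both knockout points left of both WT points, and Cyp4f18 and Cyp11a1 have them to the right.

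The Cyp2d genes, a cluster on chromosome 15 with drug-oxidising members, summed to 370.1 and 385 CPM in WT and to 271 and 161 CPM in KO. All 7 had a lower mean in KO, and 3 had no overlap (26% of all tested genes). Cyp2d22, often set beside human CYP2D6, had 57.9 and 84.3 CPM in WT against 24.4 and 37.5 CPM in KO. Its log2 fold change was -1.20 (SE 0.32), and the DESeq2 call (adjusted p 0.022) was lost in each of the 4 fits without a library. Cyp2d26 measured 26.4 and 109 CPM in WT against 14.7 and 14.8 CPM in KO, with a log2 fold change of -2.20 (SE 0.73). Its DESeq2 call (adjusted p 0.012) held in 1 of 4 fits, that without WT replicate 1, and the log2 fold change was -0.84 without WT replicate 2. Cyp2d9 had 30.1 and 22.1 CPM in WT against 18.4 and 9.28 CPM in KO, without a call. The other 4 overlapped between groups. Of these, Cyp2d34 measured 136 and 107 CPM in WT against 139.7 and 76.8 CPM in KO, and Cyp2d12 at 60.6 and 20.8 CPM against 26.7 and 5.67 CPM. Cyp2d10 had 50.8 and 37.2 CPM in WT against 41.9 and 14.6 CPM in KO, and Cyp2d11 at 8.20 and 4.88 CPM against 5.52 and 2.06 CPM. Cyp2d10 and Cyp2d11 share 35.8% and 37.2% of their 50-base stretches, mostly with each other. Per kilobase of exon Cyp2d34 had the highest level of the members, 41.4 CPM per kb on average over the libraries, above 94.4% of tested genes, followed by Cyp3a13 with 36.3 CPM per kb. Among the 1000 genes highest per kb, counts followed exon length (Spearman correlation 0.95), so ranks by this measure are uncertain there.

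Family 3 rests on Cyp3a13, its main extrahepatic member in the mouse and the only one of the 5 that could be tested. It measured 129 and 173 CPM in WT against 83.0 and 44.3 CPM in KO. Both knockout libraries were lower, by a log2 fold change of -1.25 (SE 0.36), and the DESeq2 call (adjusted p 0.0095) held in 2 of 4 fits, those without WT replicate 1 and without Itch KO replicate 1. Cyp3a25 had 0.213 and 10.7 CPM in WT and had no count in either KO library, and it shares 26.8% of its stretches with other Cyp3a genes. Cyp3a44, Cyp3a11 and Cyp3a57 are among the members under 8 CPM in every library.

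Family 4 held the member with the largest higher call in families 1 to 4. Cyp4f18, the leukotriene B4 hydroxylase of mouse neutrophils, measured 4.79 and 4.88 CPM in WT against 35.2 and 62.6 CPM in KO. Both knockout libraries were above both WT libraries, and the log2 fold change was 3.33 (SE 0.40), 10.1-fold. DESeq2 (adjusted p 2.1e-09) called it in all 4 fits without a library, while the edgeR adjusted p was 0.12. Neutrophil and leukocyte markers were higher in the same libraries: S100a8 had 17.03 and 2.85 CPM in WT against 41.8 and 43.0 CPM in KO, and Itgam at 38.0 and 37.0 CPM against 87.2 and 208 CPM. Their part in the Cyp4f18 difference was not tested. Cyp4f18 overlaps Zfp961 on the other strand, and the strand setting of the counting is not given in the sources used here.

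The other Cyp4f genes, which act on leukotrienes and fatty acids, had no DESeq2 call. Cyp4f14 measured 45.3 and 138 CPM in WT against 71.2 and 59.7 CPM in KO, and Cyp4f40 at 53.1 and 91.0 CPM against 96.8 and 58.5 CPM. Cyp4f16 had 62.9 and 81.2 CPM in WT against 69.4 and 68.6 CPM in KO, and Cyp4f17 at 5.11 and 10.4 CPM against 5.03 and 7.11 CPM. All 4 overlapped between groups. Cyp4f13 measured 50.6 and 81.1 CPM in WT against 44.0 and 35.5 CPM in KO, without overlap and with an edgeR adjusted p of 0.28. The fatty acid hydroxylase Cyp4v3, also overlapping, had 53.0 and 72.5 CPM in WT against 37.3 and 65.7 CPM in KO.

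Cyp4b1, a fatty acid and furan oxidising enzyme, measured 12.5 and 119 CPM in WT against 1.47 and 5.36 CPM in KO. The WT libraries were themselves far apart, and both stood above both knockout libraries. Its log2 fold change was -4.25 (SE 1.36), and the DESeq2 call (adjusted p 0.00051) held in 3 of 4 fits, not in that without WT replicate 2, where the log2 fold change was -1.85. Cyp4x1 had 3.19 and 10.4 CPM in WT against 1.10 and 1.65 CPM in KO, without overlap and without an adjusted call.

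Family 1 was low. Cyp1a1, the classic Ahr target, measured 2.34 and 2.44 CPM in WT against 0.613 and 0.206 CPM in KO, from 22, 30, 5 and 2 counts. The groups did not overlap, the log2 fold change was -2.54 (SE 0.70), and neither edgeR (adjusted p 0.18) nor DESeq2 (adjusted p 0.35) called it. Ahr itself had 88.5 and 60.2 CPM in WT against 59.6 and 73.2 CPM in KO, with overlap. Cyp1b1, an estrogen and retinoid oxidising enzyme of stroma, measured 1.49 and 2.68 CPM in WT against 1.23 and 17.9 CPM in KO. Only Itch KO replicate 2 was high, and without it the log2 fold change went from 2.19 to -0.76. Vitamin and lipid enzymes of family 2 were lower without a call: Cyp2r1, a vitamin D hydroxylase, at 7.03 and 6.91 CPM against 5.76 and 4.02 CPM, and Cyp2u1, a fatty acid hydroxylase, at 3.41 and 5.53 CPM against 1.84 and 1.86 CPM.

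In the steroid and retinoid families the differences went in both directions. Cyp11a1, the side-chain cleavage enzyme that makes pregnenolone from cholesterol, had 0.958 and 0.407 CPM in WT against 17.5 and 18.96 CPM in KO, from 9 and 5 counts against 143 and 184. Both knockout libraries were higher, by 26.7-fold (log2 fold change 4.74, SE 0.65). DESeq2 (adjusted p 6.3e-08) called it in all 4 fits without a library, and the edgeR adjusted p was 0.12. The log2 fold change ran from 4.23 to 5.47 without WT replicate 2 and 1 respectively. Cyp11a1 overlaps Gm17322. Cyp17a1, the next enzyme toward sex steroids and cortisol, had 3 counts in Itch KO replicate 1 and 0 elsewhere.

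Cyp7b1, an oxysterol hydroxylase, measured 14.9 and 4.96 CPM in WT against 18.6 and 61.4 CPM in KO. The groups did not overlap, the log2 fold change was 2.02 (SE 0.84), and neither edgeR (adjusted p 0.29) nor DESeq2 (adjusted p 0.092) called it. Leaving out Itch KO replicate 2 gave a log2 fold change of 0.92, leaving out WT replicate 1 gave 3.04, and DESeq2 called it in 2 of 4 fits, those without WT replicate 1 and without Itch KO replicate 1. Cyp8b1, the sterol hydroxylase of cholic acid synthesis, had 1.49 and 1.30 CPM in WT against 1.59 and 8.76 CPM in KO. It rested on Itch KO replicate 2: the log2 fold change was 1.89 with it and 0.20 without it. Cyp26a1, a retinoic acid hydroxylase, had 4 and 1 counts in WT and 4 and 16 in KO.

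Cyp26b1, the other retinoic acid hydroxylase in the list, measured 12.4 and 14.1 CPM in WT against 1.23 and 5.67 CPM in KO. Its groups did not overlap, and the log2 fold change was -1.93 (SE 0.84) with an edgeR adjusted p of 0.30. It was -1.22 without Itch KO replicate 1 and -3.41 without Itch KO replicate 2. Cyp27a1, the sterol hydroxylase of mitochondria, had 75.6 and 79.2 CPM in WT against 52.9 and 35.7 CPM in KO. Its log2 fold change was -0.81 (SE 0.23), with adjusted p of 0.20 by edgeR and 0.074 by DESeq2. Cyp39a1, an oxysterol hydroxylase, measured 54.5 and 53.9 CPM in WT against 46.2 and 34.5 CPM in KO, without overlap and without a call. Cyp27b1, which activates vitamin D, and Cyp46a1, a brain cholesterol hydroxylase, stayed under 2 CPM in every library and overlapped. Cyp20a1, an orphan P450 of neither class, had 45.99 and 45.87 CPM in WT against 43.3 and 45.5 CPM in KO.

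Genes that serve or regulate P450 enzymes were read from 6 lists. The background shares given above apply. Of 10 redox partners 1 was higher at an unadjusted edgeR p under 0.05 and none was lower or called by DESeq2. That gene, the reductase Cyb5r1, measured 53.6 and 46.9 CPM in WT against 65.6 and 81.6 CPM in KO. Por had 143 and 138 CPM in WT against 119 and 120.4 CPM in KO. Of 14 receptors of foreign chemicals and bile acids, 3 were lower and 0 higher at that level, and DESeq2 called 2 lower. Nr5a2, a nuclear receptor of intestinal steroid synthesis, measured 57.1 and 112 CPM in WT against 34.2 and 17.3 CPM in KO (DESeq2 adjusted p 0.0081). Ppara, the fatty acid receptor that controls Cyp4a genes, had 10.4 and 103 CPM in WT against 5.03 and 2.16 CPM in KO (DESeq2 adjusted p 0.00095). Rxra, the partner of many of them, measured 181 and 209.7 CPM in WT against 151 and 135 CPM in KO.

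Of 14 retinoid genes, 1 was higher at an unadjusted edgeR p under 0.05 and DESeq2 called none. It was Rdh10, a retinol dehydrogenase, at 97.1 and 89.9 CPM in WT and 134 and 132 CPM in KO. Of 12 tested steroid and vitamin D genes, 2 were lower, and DESeq2 called both lower. They were Nr3c1, the glucocorticoid receptor, at 202 and 238 CPM against 145 and 141 CPM, and Nr3c2, the mineralocorticoid receptor, at 240.0 and 205 CPM against 118 and 57.6 CPM. Of 12 heme genes, 3 were higher and 1 lower, and DESeq2 called Hmox1, the heme oxygenase, higher at 31.8 and 24.2 CPM in WT and 54.9 and 102 CPM in KO. Alas1, which makes the first precursor of heme, had 123 and 123 CPM against 166 and 151 CPM, and Fech, which inserts the iron, at 98.8 and 96.0 CPM against 78.8 and 65.9 CPM. Cyp51, the sterol demethylase left out by the naming rule, measured 163 and 133 CPM in WT against 184 and 148 CPM in KO, with overlap.

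Replicate libraries were further apart in P450 genes than in the median gene. The median absolute log2 ratio of the WT libraries was 0.61 over the 44 tested members and 0.25 over all tested genes, and that of the knockout libraries was 0.87 and 0.28. Of the 48 members with at least 2 CPM in a WT library, 12 were 8-fold or more apart between the WT libraries (25%), against 626 of 16314 genes (3.84%). In 5 of them WT replicate 1 was the higher library: Cyp2a5, Cyp2b10, Cyp2b19, Cyp2f2 and Cyp4f39. Cyp2f2, known from club cells of the lung, had 53.9 and 2.20 CPM in WT against 5.27 and 0.206 CPM in KO, and its log2 fold change went from -3.36 to 0.31 without WT replicate 1. Cyp2b19 and Cyp4f39 are enzymes of keratinocytes and skin, at 2.88 and 7.56 CPM in WT replicate 1 and at most 0.491 CPM elsewhere. The 10 squamous epithelium markers summed to 917 CPM in that library and to 29.7 to 82.4 CPM in the others. Krt5 was at 138 CPM against at most 3.09 CPM, and Dsg3 had no count in WT replicate 2. Sprr1a of the same list did not stand out there, at 41.95 CPM against 14.1 CPM in WT replicate 2 and 41.3 and 45.9 CPM in KO.

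In the other 7 WT replicate 2 was the higher library: Cyp2c66, Cyp2e1, Cyp3a11, Cyp3a25, Cyp3a44, Cyp4a32 and Cyp4b1. Cyp2e1, the ethanol-oxidising enzyme of liver and fat, measured 1.28 and 67.0 CPM in WT against 0.491 and 4.02 CPM in KO, and its log2 fold change went from -3.90 to 0.83 without WT replicate 2. Small intestine markers summed to 674 CPM in that library against 319, 248 and 171 CPM, and Sis, the sucrase of the small intestine, was at 171 CPM against at most 1.70 CPM. Adipocyte markers summed to 325 CPM in that library against 102, 25.5 and 81.6 CPM. Apoa4, another marker of the small intestine, had no count in either WT library, and 3 of the 7 adipocyte markers had none in Itch KO replicate 1. The 9 matched liver markers summed to 404 and 528 CPM in WT and 248 and 196 CPM in KO. Most of this was Apob, Cps1 and Tat. Apob measured 166 and 379 CPM in WT against 69.5 and 30.8 CPM in KO (DESeq2 adjusted p 2.7e-05). Cps1 had 98.4 and 28.6 CPM against 6.87 and 0.103 CPM, and Tat 68.1 and 91.7 CPM against 119.9 and 77.9 CPM. Of the 9 markers, 3 had both knockout libraries below both WT libraries and 3 had both above. The 3 above were Fga, Fgb and Ass1. Fgb had no count in WT and 2.21 and 15.8 CPM in KO (DESeq2 adjusted p 0.00031). Alb, the albumin of liver, was at 2.56 CPM or less in every library. The part of these markers in the P450 differences was not tested.

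**Figure D4:**
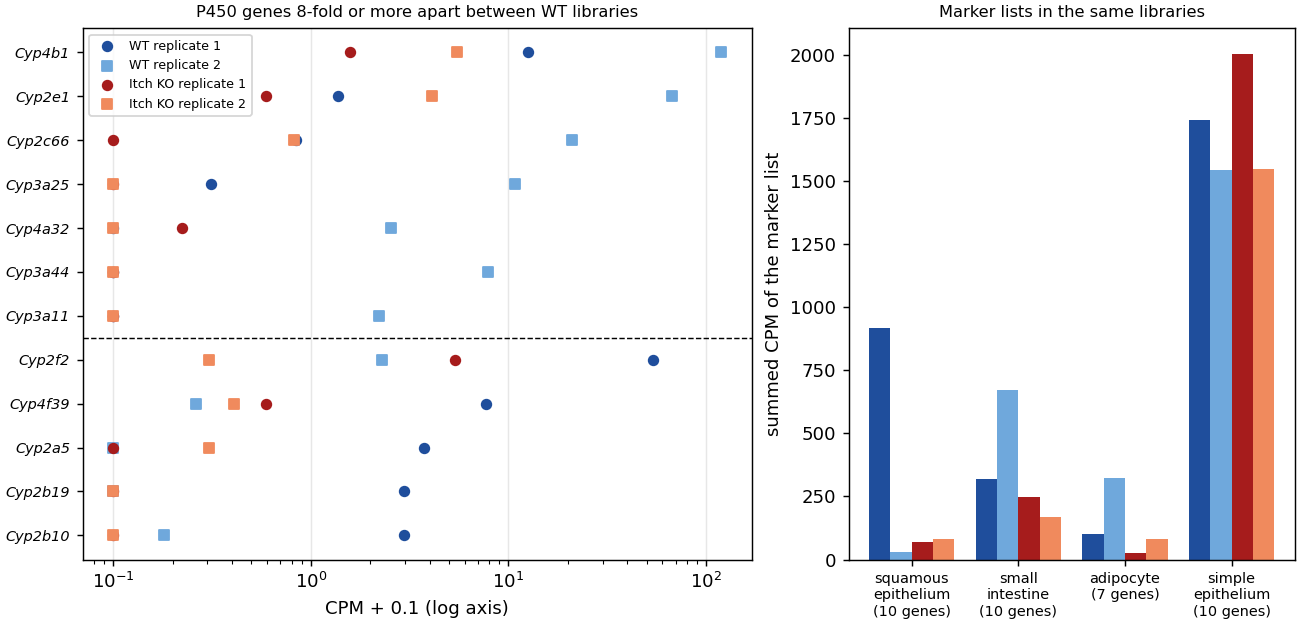
Left, CPM plus 0.1 on a log axis of the 12 P450 genes at least 8-fold apart between the WT libraries, with the 5 higher in WT replicate 1 and the 7 higher in WT replicate 2 divided by a dashed line. Right, summed CPM of 4 marker lists in the same libraries, where squamous markers stand out in WT replicate 1 and small intestine and adipocyte markers in WT replicate 2.

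The rule for per-library values left out 18 members, of which Cyp17a1, Cyp26a1, Cyp2b19 and Cyp4f39 were given above. Cyp2b23 and Cyp2g1 had no count in any library, so 59 of 61 had one. The highest level among the 18 was 7.81 CPM, of Cyp3a44 in WT replicate 2. The number of members with at least 10 CPM was 27 and 29 in WT and 21 and 22 in KO.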

How the data were processed

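Total RNA of colonic mucosa was sequenced in 4 libraries. Each library has a deposited file of raw, not normalized counts by gene. Per the submitters' processing notes the tools include HTSeq 0.6.1, TopHat2, CASAVA 1.8.2 and SAMtools 0.1.19, and the build is mm10 (GRCm38). The strand setting is not given in the sources used here. WT replicate 1 lists 19308 genes and the others 39179 with 5 summary lines, and only the shared genes were used (97.3% to 97.7% of counts). Reads outside genes (18.2% to 23.0% of the total in the 3 files with summary lines) and ambiguous reads (2.67% to 3.03%) stayed out of library sizes and tests. Members and lists were chosen with earlier results of these data known. Positions and exon lengths come from GENCODE M21 (GRCm38), and promoter windows from RefSeq GRCm38.p6.

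Samples were grouped by the labelled genotype. Genes were tested by quasi-likelihood in edgeR 4.0.16 under R 4.3.3 (TMM, filterByExpr at a minimum count of 10, robust, group only, two-sided, Benjamini-Hochberg over 16956 genes), with 2 residual degrees of freedom and a biological coefficient of variation of 34.8%. It was tested on simulated data. DESeq2 1.42.0 and limma voom 3.58.1 were alternatives, with other scalings and filters, a replicate block and each library left out. Genes with per-library values were those with a mean of at least 5 CPM, a DESeq2 adjusted p under 0.05, or a mean of at least 1 CPM and groups that do not overlap. From each pathway list up to 4 genes with the smallest edgeR p were named, or the highest gene where none was under an unadjusted 0.05. A gene this rule names is not reported here. Marker genes, Ahr, Hnf4a and Por were chosen for the text after their values were seen. Families, lists and promoters were described and not tested.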

Additional observations from a re-analysis of the deposited data

Results flagged for a closer look

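Cyp21a1, the steroid hydroxylase of the adrenal cortex, lies outside the gene list of WT replicate 1 and entered no comparison. It had 0 counts in WT replicate 2 and 4 and 6 counts in the knockout libraries. Both are above the 3 counts that a count of 0 allows by sampling alone. WT replicate 1 has no value for it. Of the 31 P450 genes found only in the 3 longer files, 20 had no count and 8 passed 3 counts in a library, with a highest count of 15. Apart from Cyp21a1, all of these 8 had their highest count in WT replicate 2. Cyp2d40 had 15 counts there against 6 and 1 in the knockout libraries, and Cyp2j13 had 14 against 1 and 0.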

How the results depend on the processing

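The median of families 1 to 4 stayed below 0 under every setting tried, that of the steroid and retinoid families changed sign, and the calls depended on the tool. edgeR called 0 members under every setting tried, and DESeq2 called 2 higher and 9 lower. Leaving out each library in turn in DESeq2, chosen after seeing the data, gave 2 to 3 higher and 3 to 11 lower calls, 3 without WT replicate 2 and 5 without Itch KO replicate 2. At an unadjusted edgeR p under 0.05, fits without a library gave 2 to 5 higher members (5 without Itch KO replicate 1) and 6 to 18 lower ones (6 without WT replicate 2). The median log2 fold change of families 1 to 4 ranged from -2.28 to -1.13 in those fits and was -1.96 with no filter. That of the steroid and retinoid families ranged from -0.38 to 0.84, was 1.08 with no filter and was -0.45 at a mean of at least 5 CPM. Sign changes were counted in the 41 tested members that met the rule for per-library values, and not in the other tested members. In the fits without a library, 9 of these 41 changed sign, with ranges of -0.76 to 3.09 for Cyp1b1, -0.66 to 0.21 for Cyp2d34, -6.08 to 0.83 for Cyp2e1, -7.01 to 0.31 for Cyp2f2, -1.05 to 0.53 for Cyp4f14, -0.21 to 0.13 for Cyp4f16, -0.75 to 0.25 for Cyp4f17, -0.30 to 0.54 for Cyp4f40 and -0.74 to 0.065 for Cyp4v3. The cause was not tested. No other setting reversed any of these 41 members. The replicate numbers did not pair the libraries (correlation of deviations 0.05 across genes, 2 pairs). With the replicate block edgeR called 0 members, 2 were higher and 16 lower at an unadjusted p under 0.05, and the medians were -1.30 and 0.06. With 2 libraries a group, a p that misses the threshold does not show that a member did not differ.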
